A study of Rattus norvegicus with 4 samples.

Results

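Neurofilament and neuronal microtubule genes were examined in rat cortex ipsilateral to an experimental stroke, in animals given estradiol and in animals given placebo. The members were chosen by gene: all non-control probe sets whose only gene symbol in the platform annotation was one of 10 listed members. This gave 19 of 8740 probe sets, for 8 genes: Nefl, Nefm, Nefh, Ina, Map2, Mapt, Map1b and Gap43. Tubb3, the neuronal beta-tubulin gene, and Stmn2, a stathmin gene, had no probe set under this rule and were not analysed here.

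The groups were ovariectomised female rats replaced with 17beta-estradiol and ovariectomised female rats on placebo. Both underwent 2 h of middle cerebral artery occlusion from inside the vessel, followed by reperfusion, so no group lacked the stroke or had ovaries. Each group had 2 Affymetrix rat arrays (array A of the U34 set), and each array carried RNA pooled from 3 animals, so the spread between arrays is that between pools and not between single rats. The pools are called estradiol 1, estradiol 2, placebo 1 and placebo 2. The series text names sampling at 6 and 24 h, and a 6 stands in the code of each array, which the labels do not explain. Strain, age and estradiol dose are not given in the sources used here.

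Neurofilaments are the intermediate filaments of neurons. They are built from light, medium and heavy subunits (Nefl, Nefm and Nefh) together with alpha-internexin (Ina), and they fill axons and set their calibre. Microtubules in the same cells are stabilised by associated proteins, chiefly Map2 in dendrites, tau (Mapt) in axons and Map1b in growing processes, whereas Gap43 is a membrane protein of growth cones and presynaptic endings. In ischaemic brain, calpain proteases cleave neurofilaments, Map2 and spectrin, and neurofilament light protein released from axons is measured as a marker of axonal injury.

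None of the 7 member genes that could be tested differed between estradiol and placebo beyond the spread between pools. With limma and Benjamini-Hochberg adjustment, 0 of the 15 member probe sets that passed the intensity filter had an adjusted p below 0.05, against 0% of all 5244 tested. At an unadjusted p below 0.05 there were also 0 of 15, against 3.07% of all tested. The 2 estradiol pools overlapped the 2 placebo pools for all 15, whereas estradiol lay wholly above placebo for 15.4% and wholly below for 14.3% of all probe sets tested. The median log2 fold change, estradiol minus placebo on the scale of log2(intensity + 16), was -0.036 over the 15 and 0.011 over all tested, with 10 of 15 below 0 against 48.4% of all. That count rested on single arrays: it was 13 without placebo 1, against 51.4% of all, 11 without estradiol 2 (48.2%), 5 without estradiol 1 (47.5%) and 3 without placebo 2 (47.2%). With 2 pools a group, the smallest two-sided exact permutation p for a single probe set is 0.333.

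Pools of the same treatment also differed from each other. All 7 neurofilament probe sets were brighter in estradiol 2 than in estradiol 1 and brighter in placebo 2 than in placebo 1, an order shown by 30.3% of all probe sets tested. The 8 other tested member probe sets showed it in 3 cases, namely the brightest Map2 probe set, 1 of Mapt and that of Gap43. These orderings were noticed in the data and carry no test, and the pool numbers are not known to pair the groups.

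**Figure D1:**
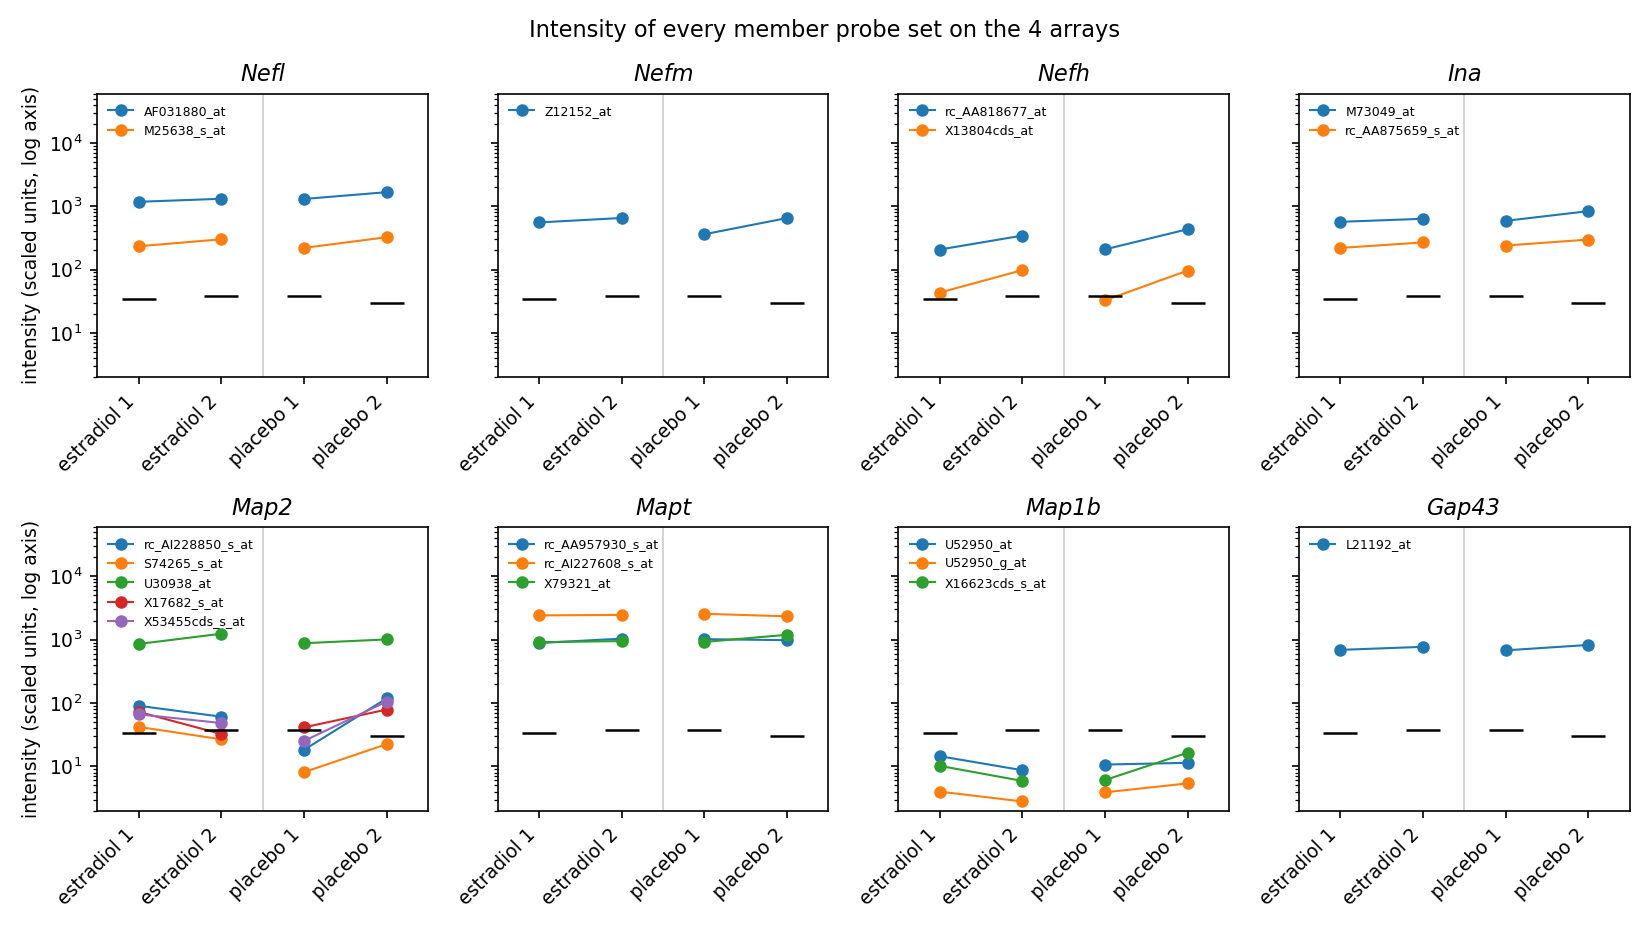
Scaled intensity (log axis) of each of the 19 member probe sets on the 4 arrays, 1 panel per gene, with lines joining the pools of a group and black dashes at the highest of 23 foreign control probe sets on that array. In both groups the neurofilament values of pool 2 are above those of pool 1, with the widest gaps for Nefh, and all 3 Map1b probe sets lie below the dashes.

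Sequence before the transcription start was available for 2 of the measured members above background, Ina and Map2, and it is shown because estradiol acts through receptors that bind defined DNA letters. The 250 bases before the RefSeq start in build GRCr8 are given 5' to 3' on the plus strand, chr1:255837879-255838128 for Ina and chr9:75346440-75346689 for Map2. Capitals mark the SP1 box, GGGCGG or its reverse complement.
Ina: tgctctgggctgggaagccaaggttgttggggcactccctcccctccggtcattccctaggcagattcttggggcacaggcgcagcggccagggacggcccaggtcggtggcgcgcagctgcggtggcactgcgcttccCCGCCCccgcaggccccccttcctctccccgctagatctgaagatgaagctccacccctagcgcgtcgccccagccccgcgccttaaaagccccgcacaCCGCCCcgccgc
Map2: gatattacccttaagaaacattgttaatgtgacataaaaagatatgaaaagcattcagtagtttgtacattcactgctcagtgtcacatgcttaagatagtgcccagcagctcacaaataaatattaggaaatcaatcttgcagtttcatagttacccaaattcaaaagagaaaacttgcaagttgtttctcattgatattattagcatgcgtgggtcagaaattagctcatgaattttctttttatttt
The Ina window held 2 SP1 boxes, which do not overlap each other, and the Map2 window held 0. The box occurs in 30.5% of 33469 such windows of rat genes. Searched on both strands, the estrogen response element palindrome, GGTCA and TGACC separated by any 3 bases, was found in neither window and in 0.0239% of all windows. Its half-site AGGTCA was found in neither and in 14.1% of all, and the TATA box TATAAA in neither and in 12.9%. Windows differ in base composition, with 70.8% G and C for Ina and 32% for Map2. A match or its lack describes these letters only, and Map2 has several transcript starts, of which the window covers 1.

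Nefl, the light subunit of neurofilaments, was measured by 2 probe sets above background on all 4 arrays. The first, AF031880_at, read 1172 and 1309 under estradiol, against 1299 and 1663 under placebo. Placebo 2 was the highest, and estradiol 2 and placebo 1 were nearly equal, so the groups overlapped. The log2 fold change was -0.24 ± 0.21 (SE), with a 95% interval from -0.73 to 0.24 (limma, adjusted p = 0.998). The second, M25638_s_at, read 233 and 300 under estradiol, against 220 and 324 under placebo, a log2 fold change of -0.012 ± 0.26 (SE), which was 0.16 without estradiol 1 and 0.25 without placebo 2. Both placebo values lay outside the estradiol range, on opposite sides.

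Nefm, the medium subunit, whose gene lies next to Nefl in the RefSeq gene table with 0 protein-coding genes between them, was read by 1 probe set. Z12152_at read 554 and 652 under estradiol, against 361 and 650 under placebo. Placebo 1 was the lowest, estradiol 2 and placebo 2 were nearly equal, and estradiol 1 lay between. The log2 fold change was 0.30 ± 0.29 (SE), with an interval from -0.38 to 0.98 (limma, adjusted p = 0.998), and it rested on placebo 1, without which it was -0.11. Without placebo 2, which leaves placebo 1 as the only placebo array, it was 0.71.

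Nefh, the heavy subunit, which carries the long phosphorylated tail of the axonal filament, varied most among the neurofilament genes. Its probe set rc_AA818677_at read 207 and 344 under estradiol, against 208 and 434 under placebo. Estradiol 1 and placebo 1 were almost equal and low, and estradiol 2 and placebo 2 were both high, 1.66-fold and 2.08-fold above the other pool of their group. The fitted log2 fold change was -0.17 ± 0.37 (SE), and it was 0.18 without estradiol 1 and 0.34 without placebo 2. The dimmer X13804cds_at followed the same order, at 43.3 and 98.0 under estradiol, against 32.7 and 96.5 under placebo, where placebo 1 was below the highest foreign control. Its log2 fold change was 0.15 ± 0.48 (SE), and it was -0.32 without estradiol 2 and -0.45 without placebo 1. The SD of the 4 log2 values was 0.51 and 0.63 for these probe sets, at percentiles 89.1 and 94.3 of all tested.

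Ina, which encodes alpha-internexin, a subunit of neurofilaments in the central nervous system, had 2 probe sets with the same order of arrays. M73049_at read 566 and 633 under estradiol, against 587 and 836 under placebo, and rc_AA875659_s_at read 219 and 268 under estradiol, against 239 and 297 under placebo. Placebo 2 was the highest and estradiol 1 the lowest in both probe sets, and placebo 1 lay between the estradiol pools. The log2 fold changes were -0.22 ± 0.23 (SE) and -0.13 ± 0.23 (SE), neither of which passed (limma, adjusted p = 0.998 for each). Without placebo 2 they were 0.027 and 0.018, and the second was 0.0065 without estradiol 1.

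**Figure D2:**
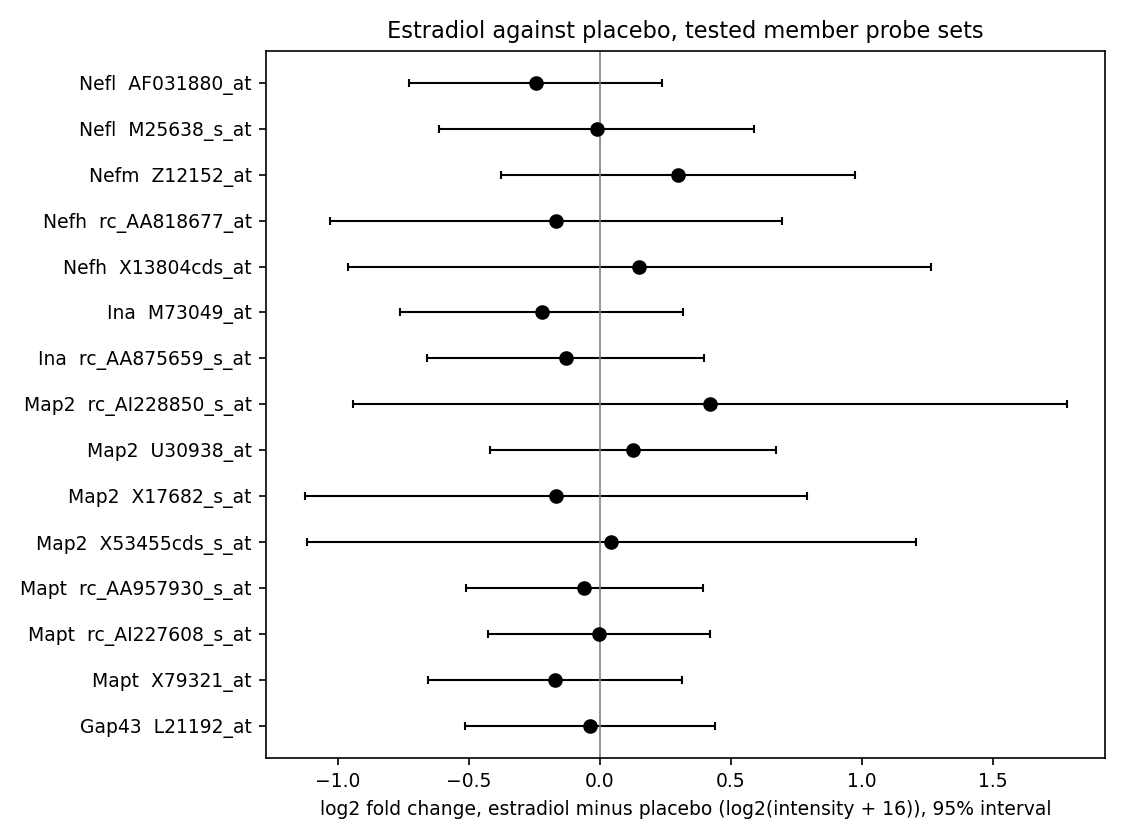
Fitted log2 fold change, estradiol minus placebo, of the 15 tested member probe sets, with bars for the 95% interval from limma. Every interval crosses 0, and those of Mapt and Gap43 are narrower than those of Nefh and of the dim Map2 probe sets.

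Among the microtubule-associated proteins, Map2, which spaces microtubules in dendrites, gave probe sets that disagreed. U30938_at read 855 and 1241 under estradiol, against 879 and 1009 under placebo, so both placebo pools lay between the estradiol pools. Its log2 fold change was 0.13 ± 0.23 (SE), with an interval from -0.42 to 0.67 (limma, adjusted p = 0.998), and -0.14 without estradiol 2. The other 3 tested Map2 probe sets were dim and ran the other way with estradiol, where estradiol 1 was the brighter pool in each.

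Of these, rc_AI228850_s_at read 90.6 and 60.9 under estradiol, against 18.2 and 118 under placebo. X53455cds_s_at read 66.4 and 48.4 under estradiol, against 25.1 and 105 under placebo. X17682_s_at read 72.8 and 32.5 under estradiol, against 41.3 and 78.9 under placebo. In all 3 the estradiol pools lay between the placebo pools or overlapped them, and 1 array of each lay below the highest foreign control, namely placebo 1 for the first and second and estradiol 2 for the third. Their log2 fold changes were 0.42 ± 0.59, 0.045 ± 0.50 and -0.17 ± 0.41 (SE), and without placebo 1 they were -0.57, -0.74 and -0.53. Without placebo 2 the third was 0.20, and the first and second, set against placebo 1 alone, rested on a value not above background. The third was also 0.27 without estradiol 2, and the second -0.13 without estradiol 1 and -0.021 with an offset of 64.

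The fifth Map2 probe set, S74265_s_at, was not tested because its mean fell under the filter. It read 42.1 and 26.8 under estradiol, against 8.1 and 22.4 under placebo, and only estradiol 1 was above the highest foreign control. Both estradiol values were above both placebo values, but no fold is given because 3 of the 4 arrays were at background. Which Map2 transcripts each probe set matches was not examined here.

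Mapt, which encodes the axonal protein tau, held the least variable of the 15 tested member probe sets. This probe set, rc_AI227608_s_at, read 2420 and 2460 under estradiol, against 2560 and 2336 under placebo, so the highest array was 1.10 times the lowest. The SD of its 4 log2 values was 0.054, at percentile 1.53 of all tested. rc_AA957930_s_at read 886 and 1039 under estradiol, against 1019 and 982 under placebo, at percentile 7.55. X79321_at read 912 and 951 under estradiol, against 922 and 1196 under placebo, where placebo 2 alone stood apart.

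The log2 fold changes of Mapt were -0.0034 ± 0.18, -0.059 ± 0.19 and -0.17 ± 0.21 (SE) for these probe sets in that order, and the interval of the first ran from -0.43 to 0.42. The sign of the first turned with quantile normalisation (0.12), without estradiol 1 (0.0084) and without placebo 1 (0.062). That of the second turned without estradiol 1 (0.053) and that of the third without placebo 2 (0.015). Unlike the 7 neurofilament probe sets, 2 of the 3 Mapt probe sets were dimmer in placebo 2 than in placebo 1.

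Map1b, which binds microtubules in growing axons, could not be compared. Its 3 probe sets stood between 2.8 and 14.5 with estradiol and between 3.9 and 16.5 with placebo, below the highest foreign control on all 4 arrays. Not being above background anywhere, they allow no fold change in either direction.

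Gap43, the growth cone protein that marks axonal outgrowth, varied little. L21192_at read 690 and 771 under estradiol, against 679 and 826 under placebo, so both estradiol pools lay between the placebo pools. The log2 fold change was -0.036 ± 0.20 (SE), with an interval from -0.51 to 0.44 (limma, adjusted p = 0.998). It was 0.042 without estradiol 1 and 0.10 without placebo 2. The highest array was 1.22 times the lowest, and the SD of the log2 values was at percentile 14.7 of all tested.

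**Figure D3:**
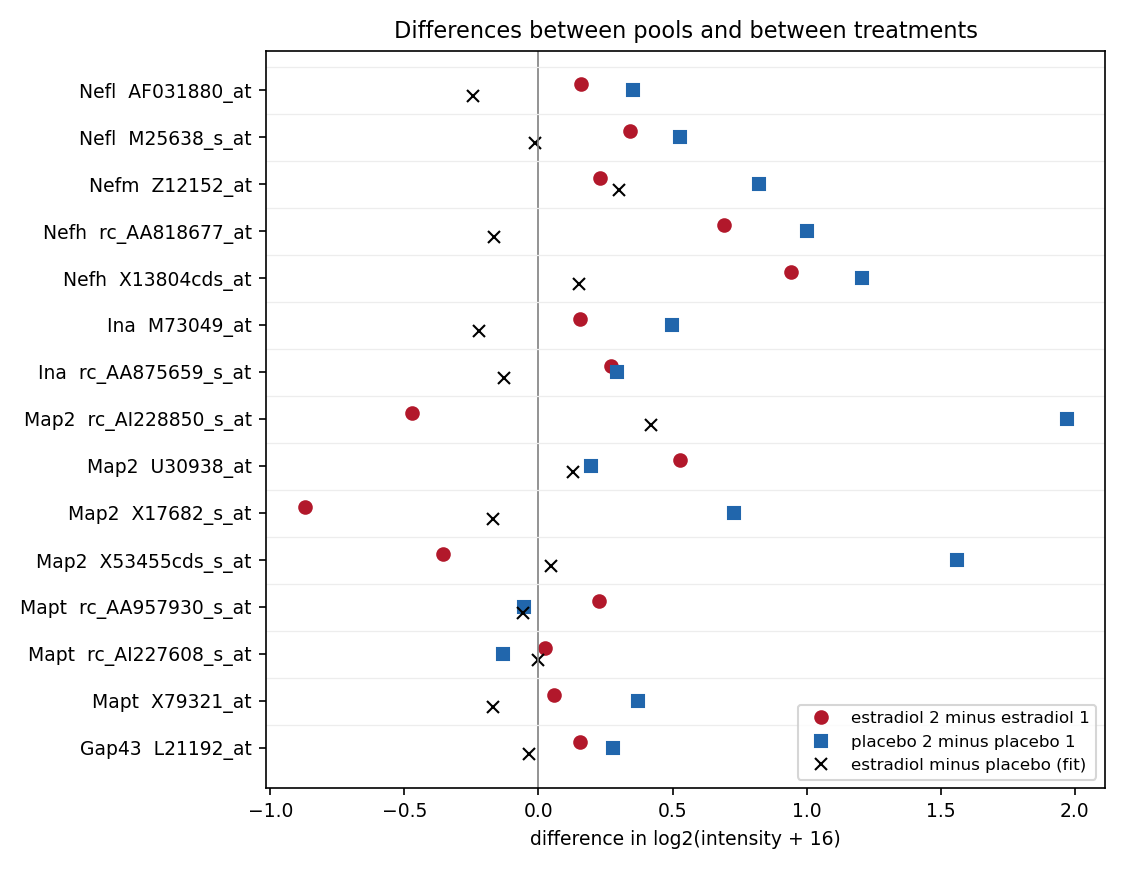
Difference in log2(intensity + 16) from estradiol 1 to estradiol 2 (circles), from placebo 1 to placebo 2 (squares) and between treatments (crosses) for each tested member probe set. All 7 neurofilament probe sets have both pool differences above 0, and the 3 dim Map2 probe sets have estradiol differences below 0 and placebo differences above 0, with 1 array of each below the highest foreign control.

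Across the 15 tested probe sets, the median absolute log2 difference was 0.27 between estradiol 1 and 2 and 0.50 between placebo 1 and 2, beside 0.26 and 0.27 over all probe sets tested. Between treatments it was 0.12 for estradiol 1 and placebo 1, 0.38 for estradiol 1 and placebo 2, 0.24 for estradiol 2 and placebo 1, and 0.29 for estradiol 2 and placebo 2. The members of estradiol 1 and placebo 1 were thus nearer each other than those of either pair of pools of 1 treatment. Over all probe sets tested estradiol 1 and placebo 1 were also nearer, at 0.24, so this order is not particular to the members. The gap was smaller there, beside 0.26 and 0.27 within treatments, than for the members, with 0.12 beside 0.27 and 0.50. The remaining pairs between treatments, in the order above, had 0.24, 0.29 and 0.26 over all tested. Placebo 2 was the brightest array for 10 of the 15, against 25.9% of all tested.

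Other genes of the neuronal cytoskeleton were set beside the members, each gene by its brightest tested probe set, and 0 of any list had an adjusted p below 0.05 in limma, against 0% of 3181 genes. At an unadjusted p below 0.05 there were also 0 in these cytoskeletal lists, against 2.58% of genes. Of the other tubulins, the subunits of the microtubule wall, 5 of 12 listed were tested, with 3 having estradiol wholly below placebo, against 14% of genes. These were Tuba4a, at 416 and 389 under estradiol, against 473 and 626 under placebo (log2 fold change -0.42 ± 0.22, SE), Tubb5 with -0.31 and Tuba1b with -0.21. Tubg1, the centrosomal gamma-tubulin gene, had the highest value of this list with 0.39.

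Of 10 other microtubule-associated and stathmin genes, 7 had values below 0, against 47.6% of genes, with a median of -0.13. The lowest was Dclk1, a doublecortin-like kinase gene, at 113 and 120 under estradiol, against 145 and 275 under placebo, which gave a log2 fold change of -0.71 ± 0.31 (SE) and an unadjusted p of 0.0515 in limma. The highest was Map6, which stabilises microtubules against cold, with 0.074. Map1a, expressed in mature neurons, read 1157 and 1678 under estradiol, against 1408 and 2003 under placebo, brighter in pool 2 of both groups as the neurofilament genes were. Placebo 2 was the brightest array for 9 of these 10 genes, against 26.4% of genes.

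The other intermediate filament genes include those of glia, precursors, epithelia and the nuclear lamina, and Prph, the peripherin gene of neurons. None of the 6 tested was brighter in pool 2 of both groups, and 4 were dimmer there in both, Vim, Krt19, Nes and Lmna, against 23.4% of genes. Vim, the vimentin gene, read 231 and 208 under estradiol, against 222 and 113 under placebo, with the highest log2 fold change of the list, 0.43 ± 0.31 (SE). Lmna, a nuclear lamina gene, had the lowest with -0.097. Prph, the one neuronal gene of the list, read 56.3 and 68.2 under estradiol, against 53.3 and 44.2 under placebo. Both estradiol pools were above both placebo pools, as for 16.1% of genes, with a log2 fold change of 0.27 ± 0.30 (SE) (limma, adjusted p = 0.998). Of 11 genes for motors and the spectrin scaffold, 8 were brighter in pool 2 of both groups, against 32% of genes, and their median was 0.082. Ank3, which anchors channels at the axon initial segment, had the highest value with 0.42 and Klc1, a kinesin light chain gene, the lowest with -0.24.

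Of 7 genes of calpains, whose proteases cut neurofilaments and Map2, and of their inhibitor calpastatin (Cast), 6 had values below 0, against 47.6% of genes, with a median of -0.23. Capn1 had -0.17 and Capn2 -0.085. The extremes of the list were Capn6 with 0.27 and Capn8 with -0.36. These, and also Cast with -0.28 and Capn9 with -0.27, had 1 estradiol array below the highest foreign control. Their order, and with it the count below 0, is uncertain. Of 22 kinase and phosphatase genes that act on cytoskeletal proteins, 17 had values above 0, against 52.4% of genes, with a median of 0.10. Mark3, a kinase of microtubule-associated proteins, had the highest with 0.43. Cdk5, a neurofilament and tau kinase, had the lowest, at 138 and 159 under estradiol, against 178 and 208 under placebo, a log2 fold change of -0.35 ± 0.22 (SE). Among 15 axon growth genes 9 had values above 0, from 0.50 for Marcks, a membrane-bound actin regulator, to -0.36 for the adhesion gene Cntn1.

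The pools also differed in markers of the cells they held. Of 29 general neuron markers, 22 were brightest in placebo 2, against 26.4% of genes, and 14 were brighter in pool 2 of both groups, against 32%. Their summed intensities were 30340 and 29800 under estradiol, against 29660 and 36730 under placebo. Oligodendrocyte markers ran against the neurofilament genes: 9 of 10 were dimmer in pool 2 of both groups, against 23.4% of genes, with sums of 18160 and 13820 under estradiol, against 22550 and 14520 under placebo. Choroid plexus and meninges markers had sums of 2514 and 7163 under estradiol, against 13170 and 1479 under placebo. Ttr read 165 and 4312 under estradiol, against 8034 and 74.3 under placebo. It was the brightest of the list in estradiol 2 and placebo 1, whereas Ptgds was the brightest in estradiol 1 (1301) and placebo 2 (551). Snap25, a gene of the neuronal release machinery, read 2664 and 2340 under estradiol, against 1959 and 3001 under placebo. Genes listed as striatum markers were measured in these samples labelled as cortex, and whether striatum was present was not tested. Of the 10, 5 had both estradiol pools above both placebo pools, against 16.1% of genes. Among these 5, Rgs9 was above the highest foreign control on 1 array only. Values over the list ranged widely. Tac1, a tachykinin gene, was the highest, at 381 and 408 under estradiol, against 108 and 116 under placebo. Its fitted difference was 1.68 ± 0.21 on the log2 scale (SE), where limma gave an unadjusted p of 5.44e-05 and an adjusted p of 0.285. Chat, the gene of the acetylcholine-forming enzyme, was the lowest with -0.44.

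In bulk tissue, fewer neurons and less RNA per neuron cannot be told apart. Between treatments, the median log2 fold change was -0.11 for neuron, -0.092 for 11 astrocyte, -0.066 for oligodendrocyte, 0.062 for 8 microglia, -0.18 for 10 vascular and -0.027 for choroid plexus and meninges markers. It was 0.38 for 10 striatum markers and -0.55 for 7 blood cell markers, and no gene of these lists passed the adjusted threshold in limma. At an unadjusted p below 0.05 there were 3 of 10 striatum, 3 of 7 blood cell, 2 of 10 vascular and 1 of 29 neuron markers, against 2.58% of genes. The blood cell markers overlapped between groups in 0 of 7 cases, with 6 lower and 1 higher under estradiol. Estradiol lay wholly below placebo for 14% of genes and wholly above for 16.1%. The higher gene, Hbe1, had placebo 1 below the highest foreign control. The part of these marker differences in the neurofilament values was not tested. The 3' to 5' ratio of the GAPDH controls, which falls with better RNA integrity, was 1.38 and 1.30 under estradiol, against 1.45 and 1.42 under placebo, lower in pool 2 of both groups. The ratio for actin was 1.28 and 1.58 under estradiol, against 1.39 and 1.47 under placebo, higher in pool 2 of both.

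**Figure D4:**
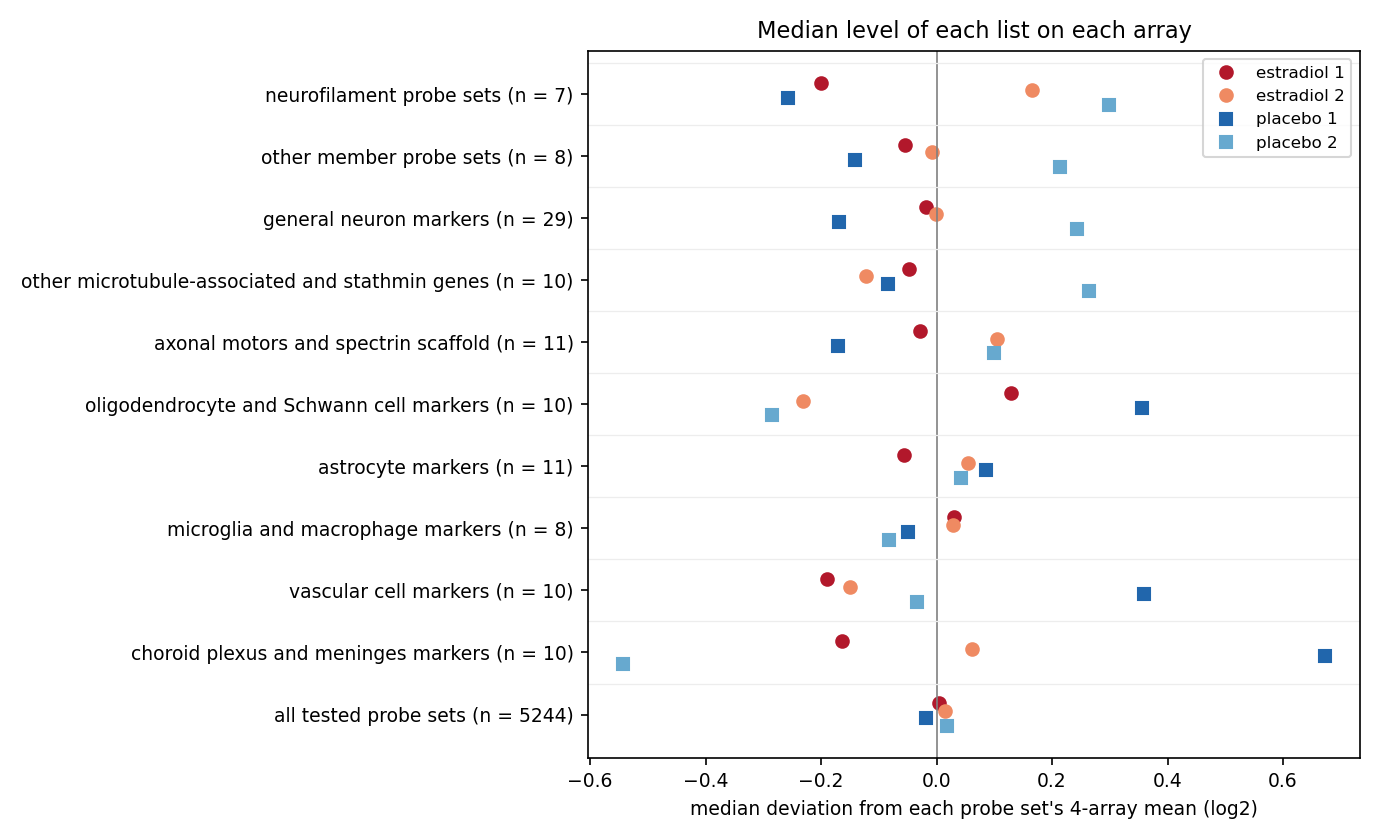
Median over each list of the deviation of log2(intensity + 16) from the 4-array mean of each probe set, for estradiol 1 and 2 (circles) and placebo 1 and 2 (squares). Neurofilament probe sets lay at -0.20 and 0.17 under estradiol, against -0.26 and 0.30 under placebo, and oligodendrocyte markers at 0.13 and -0.23 under estradiol, against 0.36 and -0.28 under placebo.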

How the data were processed

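Each deposited value is the linear intensity of 1 probe set on 1 array. The array means after trimming 2% at each end, computed here, were 150.18 to 150.20, so the values were taken as already scaled to a common level. Per the series design text, biotin-labelled RNA was hybridised. The summarising software is not given in the sources. Precision is limited by the number of arrays.

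After removal of 59 control probe sets, log2(intensity + 16) was tested with limma 3.58.1 in R 4.3.3 (lmFit, eBayes with intensity trend, two-sided) on the 5244 of 8740 probe sets whose mean was at or above the 40th percentile (37.5). P-values were adjusted over all of them (Benjamini-Hochberg, 0.05), and the code was tested on simulated data. This scale understates changes of dim probe sets. Background was the highest of 23 bacterial, yeast and mouse control probe sets on each array, 33.9 and 37.8 with estradiol and 37.8 and 30.1 with placebo. Genes were named from the platform annotation, where 7006 probe sets had 1 symbol, 308 several and 1426 none. Promoter sequences are from RefSeq (GRCr8). Figures were drawn with Python 3.11.15 and matplotlib 3.10.9.

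The members, the 15 companion and marker lists and the rule for named genes (all members, and in each companion list the highest and lowest gene, plus genes fixed by name) were chosen with earlier results of these data known. Tuba1b, Tubb5, Krt19, Nes, Prph, Capn9 and Rgs9 were named after their values were seen. The pool numbers are not stated to mark pairs. Other settings tried were an offset of 1 or 64, all probe sets or those from the 60th percentile up, quantile normalisation, median centring, no intensity trend, the pool number as a block, and leaving out each array.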

Additional observations from a re-analysis of the deposited data

How the results depend on the processing

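No probe set passed under any alternative in limma, neither among the 15 members nor over all tested, and counts at an unadjusted p below 0.05 lay between 89 (filter at the 60th percentile, 3496 tested) and 337 (no filter, 8740 tested). The median over the members was -0.036 and moved to -0.35 without placebo 1, with leave-one-out values from -0.35 to 0.20 (without placebo 2). Leaving out 1 array turned the sign in 22 of 60 member values, and the other settings in 2 of 116: X53455cds_s_at of Map2 (-0.021 with an offset of 64) and rc_AI227608_s_at of Mapt (0.12 with quantile normalisation). The filter at the 60th percentile removed 4 dim member probe sets. Each group reduced to 1 array takes its spread from the other group. Below 0 lay 3 to 13 of the 15 members with 1 array left out. Without placebo 2, Nefm Z12152_at and Map2 rc_AI228850_s_at, whose placebo 1 value is not above background, had an unadjusted p below 0.05, 0.0338 and 0.0167. With 1 array left out, log2 fold changes ranged as follows: Nefl (AF031880_at -0.42 to -0.067, M25638_s_at -0.28 to 0.25); Nefm (Z12152_at -0.11 to 0.71); Nefh (rc_AA818677_at -0.67 to 0.34, X13804cds_at -0.45 to 0.76); Ina (M73049_at -0.47 to 0.027, rc_AA875659_s_at -0.28 to 0.018); Map2 (rc_AI228850_s_at -0.57 to 1.41, U30938_at -0.14 to 0.39, X17682_s_at -0.60 to 0.27, X53455cds_s_at -0.74 to 0.83); Mapt (rc_AA957930_s_at -0.17 to 0.053, rc_AI227608_s_at -0.069 to 0.062, X79321_at -0.35 to 0.015); Gap43 (L21192_at -0.17 to 0.10). With the pool number as a block the median was also -0.036 and no call changed, with 210 against 161 probe sets at an unadjusted p below 0.05. The pool differences of the 2 groups had a correlation of 0.036 over all tested probe sets, and 2 pairs are too few to show pairing. The narrowest member interval, that of rc_AI227608_s_at of Mapt, ran from -0.43 to 0.42 without adjustment. Smaller differences were not detectable with 2 pools a group, and much larger ones could also miss the adjusted threshold. Tac1, with a log2 fold change of 1.68, had an adjusted p of 0.285 in limma, the smallest over all tested.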
